A study of Mus musculus with 24 samples.

Results

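Heme synthesis and breakdown genes were followed along the mouse gastrointestinal tract by the 13 probe sets that the platform annotation assigns to 9 genes: Alas1, Alad, Uros, Urod, Cpox, Ppox, Fech, Hmox1 and Bach1. They stand among 12488 probe sets and 8252 named genes on the array. Urod, Cpox, Ppox and Bach1 have a pair of probe sets each, which were kept apart, and the other genes have 1. The set was chosen by measured values of 2 of its genes: the Urod probe sets gave different answers, and Bach1 was higher in germ-free mice. Therefore the values of Urod in every comparison and of Bach1 between germ-free and conventional mice are described here without a test. The other genes entered through their place in the pathway.

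RNA came from whole tissue of 4 regions, taken from germ-free mice, which carry no microbiota, and from conventional mice, which do. The corpus is the acid-secreting main part of the stomach. Each of the 8 groups had 3 arrays, 24 in all: germ-free corpus, jejunum, descending colon and rectum, and conventional corpus, jejunum, descending colon and rectum. No genotype, strain, sex, age or treatment apart from microbial status is given in the labels, and they do not say whether an array held 1 mouse or a pool. Expression is given as the deposited linear signal, in arbitrary units that can be compared between arrays for 1 probe set but not between probe sets.

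Heme is built from glycine and succinyl-CoA in a chain that starts in the mitochondrion, runs through the cytosol and ends in the mitochondrion, where ferrochelatase inserts iron. Heme oxygenase opens the ring and releases iron, carbon monoxide and biliverdin. Bach1, with small Maf proteins, represses the heme oxygenase gene, and binding of heme takes Bach1 off the DNA. In the gut, epithelial cells make heme for cytochromes and catalase. Elsewhere in the body, macrophages break down the heme of old red cells.

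The labelled region was checked against marker genes, and 3 libraries opposed their labels. Conventional jejunum 3 had the hindgut gene Hoxb13 at 1626 and the enterocyte gene Apoa4 at 13.8. Conventional rectum 1 had Apoa4 at 2766 and Hoxb13 at 41.7. Germ-free corpus 3 had the proton pump gene Atp4a at 176 and Hoxb13 at 1399. Others were mixed. Germ-free rectum 1 had Atp4a at 1968 beside Hoxb13 at 989.3, germ-free jejunum 3 had Atp4a at 874, Hoxb13 was only at 111.6 in germ-free descending colon 1, and germ-free corpus 2 had the colonic gene Car1 at 1433. All libraries stayed under their labels. The members' called differences are also given without the 3 opposing libraries, on 21 arrays, as are many of their other differences. In whole tissue, fewer cells of a type and less RNA per cell cannot be told apart.

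Signals below 21.2, a floor placed at the 25th percentile of the whole table, were raised to it before log2 was taken. A fold against a group with no array over the floor is given as a lower bound ("at least"). All folds come from the differences of mean log2 values. Of the 13 probe sets, 11 passed the filter for testing, a signal over 51.5 on at least 3 arrays. Ppox 161271_r_at, at 1.5 to 22.1, and the only Fech probe set, at 8.2 to 43.1, did not. Urod 161328_i_at was over 51.5 on 11 arrays and Bach1 93142_at on 5, so each passed only through the groups where it is high.

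Promoter windows of Urod and Bach1 are shown because their probe sets disagree, and that of Alad because it was a synthesis gene whose level differed between regions. They are RefSeq sequences of build GRCm38.p6, from 250 bases before to 50 bases after the annotated start, and capitals mark the motif matches described after them. The Urod window is chr4:116994364-116994663 on the minus strand, the Bach1 window chr16:87698704-87699003 on the plus strand, and the Alad window, the first of 2 overlapping ones, chr4:62520014-62520313 on the minus strand.
Urod: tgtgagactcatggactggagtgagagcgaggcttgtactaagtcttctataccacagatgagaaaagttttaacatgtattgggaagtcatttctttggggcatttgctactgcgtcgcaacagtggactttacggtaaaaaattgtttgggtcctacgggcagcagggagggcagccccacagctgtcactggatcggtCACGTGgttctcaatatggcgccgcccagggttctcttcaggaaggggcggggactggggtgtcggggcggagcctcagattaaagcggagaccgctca
Bach1: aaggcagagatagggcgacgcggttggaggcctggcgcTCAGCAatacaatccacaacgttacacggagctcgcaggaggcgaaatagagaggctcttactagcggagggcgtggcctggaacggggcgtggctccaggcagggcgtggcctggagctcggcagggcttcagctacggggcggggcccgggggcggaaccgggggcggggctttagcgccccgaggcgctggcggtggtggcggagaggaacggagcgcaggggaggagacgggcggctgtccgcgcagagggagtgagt
Alad: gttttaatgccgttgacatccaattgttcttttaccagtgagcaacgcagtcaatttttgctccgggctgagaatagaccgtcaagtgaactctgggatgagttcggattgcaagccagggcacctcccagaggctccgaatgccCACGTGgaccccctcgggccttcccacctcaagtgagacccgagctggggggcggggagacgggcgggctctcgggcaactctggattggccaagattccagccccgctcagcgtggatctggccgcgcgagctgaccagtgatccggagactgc
A search of both strands covered the Maf recognition element that Bach1 binds, the letters TGCTGA that open it and so overlap it, the antioxidant response core TGACNNNGC, the E-box CACGTG and the NRF1 site. Windows of 7 of the 9 genes were searched, 10 windows in all, and Hmox1 and Fech were not among them. The E-box lay from 48 to 43 bases before the Urod start and from 104 to 99 bases before the Alad start, and it was also in a Uros window. The other Alad window, not shown, held a different E-box, from 27 to 22 bases before its own annotated start. The E-box is present in 7.15% of all 32851 windows of this length. Bach1 had a single TGCTGA, on the opposite strand, which 19.5% of windows hold. The NRF1 site was in both Alas1 windows, which overlap and share this 1 site, against 0.971% of all, and neither the Maf recognition element (0.155% of windows) nor TGACNNNGC (12.4%) was in a member's window. These are matches of letters only.

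Urod codes for uroporphyrinogen decarboxylase, the cytosolic enzyme that trims the side chains of the ring. The annotation ties 161328_i_at to an expressed sequence tag, a short single read of a cDNA, and 94275_at to a GenBank record that is not a tag. On Affymetrix arrays the ending _i marks a set with fewer probes than the design called for.

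Urod 161328_i_at fell into separate levels by group. In germ-free corpus it was at 21.4, 26.6 and 24.1, against 51.9, 40.5 and 71.7 in conventional corpus. In germ-free jejunum it was at 20.5, 11.9 and 27.2, against 80.3, 74.4 and 145.8 in conventional jejunum. In germ-free descending colon it was at 15.5, 17.3 and 19.7, all under the floor, against 80.1, 82.9 and 86.1 in conventional descending colon. In these 3 regions every germ-free array lay below every conventional one. The rectum ran the other way, with 71.2, 92.9 and 106 in germ-free rectum against 13.7, 19.6 and 17.4, all under the floor, in conventional rectum. Thus the 12 arrays of conventional corpus, jejunum and descending colon and germ-free rectum lay between 40.5 and 145.8, and the other 12 between 11.9 and 27.2, with no overlap. Within the higher groups, conventional jejunum, conventional descending colon and germ-free rectum overlapped, and conventional corpus overlapped germ-free rectum at its upper end.

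On the floored scale the germ-free minus conventional log2 difference of Urod 161328_i_at was -1.15 in the corpus, -2.05 in the jejunum, -1.97 in the descending colon and 2.07 in the rectum. The signal of germ-free mice was thus 2.22-fold lower in the corpus, at least 3.91-fold lower in the descending colon and at least 4.19-fold higher in the rectum. No fold is given for the jejunum, where 2 of the 3 germ-free arrays were under the floor. The libraries with opposing markers kept to the level of their labelled groups. Conventional jejunum 3, with hindgut markers, had the highest value of all at 145.8. Conventional rectum 1, with jejunal markers, had 13.7, although conventional jejunum was high. Germ-free corpus 3, also with hindgut markers, had 24.1, within the range of the other germ-free corpus arrays. Without the 3 libraries the differences were -1.16, -1.75, -1.97 and 2.07. The difference averaged over the 4 regions was -0.78.

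Urod 94275_at showed no such split. In the corpus it was at 153.9 ± 13.1 in germ-free and 140.7 ± 27.5 in conventional mice (SD, n = 3 each), and these overlapped. In the jejunum it was at 168.7 ± 37.1 in germ-free and 132.8 ± 34.8 in conventional mice. In the descending colon it was at 132.4, 126.1 and 138.1 in germ-free mice, against 189, 143.9 and 222.7 in conventional mice, the only region where its groups did not overlap. In the rectum it was at 134.7 ± 21.0 in germ-free and 167.1 ± 45.2 in conventional mice, so the direction was opposite to that of 161328_i_at in the corpus, the jejunum and the rectum. All 24 arrays lay between 102.4 and 222.7. Its log2 differences were 0.15, 0.35, -0.46 and -0.29 from corpus to rectum, and 0.14, 0.55, -0.46 and -0.49 without the 3 libraries. Over the 24 arrays, which share 1 scaling and fall into 8 groups, the Pearson r between the Urod probe sets was -0.15, and -0.27 without the 3 libraries.

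**Figure D1:**
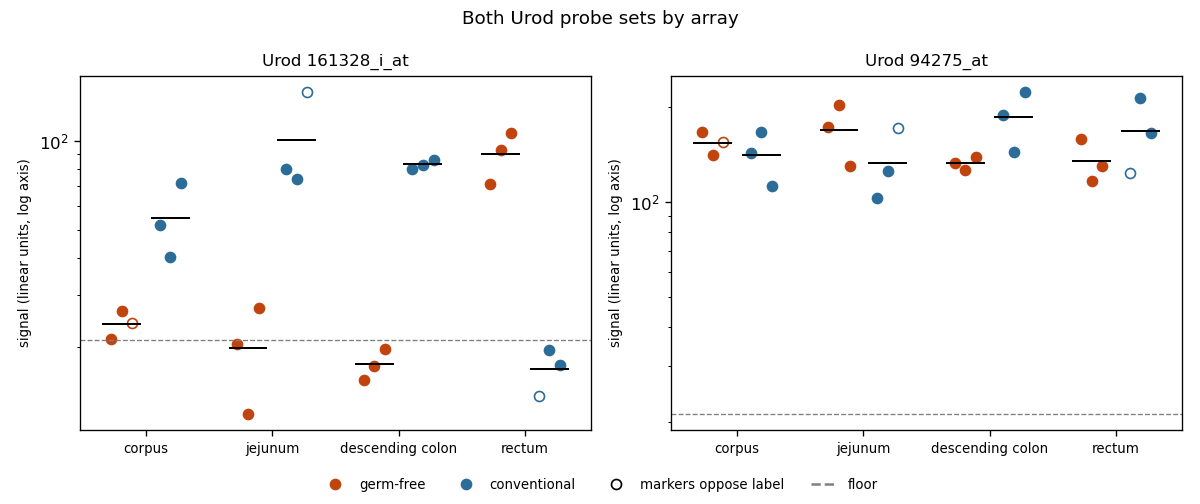
Signal of each Urod probe set on a log axis, by region, with germ-free arrays left of conventional arrays, a point for each array, a bar for the mean of 3 arrays and a dashed line at the floor of 21.2. Open points are the 3 libraries whose region markers oppose their labels. In the 161328_i_at panel the rectum is turned against the other regions, and in the 94275_at panel all points lie between 102.4 and 222.7.

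The probe sets most like Urod 161328_i_at over the 24 arrays were those of Pld4 (Pearson r = 0.62), Zscan26 (0.61) and Ptch1 (0.59). The likeness was partial. Pld4, an endolysosomal nuclease of myeloid cells, was at 38 to 54.9 in germ-free rectum and 32.3 to 61.5 in conventional rectum, where Urod differed. Those most like Urod 94275_at were Ptov1 (0.71), Tmem205 (0.70) and Saysd1 (0.69), a different set of genes.

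Bach1 codes for the heme-sensing repressor. Here 94415_at is the probe set tied to an expressed sequence tag, and 93142_at is tied to a GenBank record that is not a tag. Bach1 93142_at was at or under the floor on all 12 conventional arrays, where its highest signal was 16.8. In germ-free jejunum it was at 59.1, 135.5 and 134.6, against 10.9, 9.7 and 4.8 in conventional jejunum. In germ-free descending colon it was at 65.7, 111.2 and 20.3, against 7.4, 6.2 and 8.4 in conventional descending colon. In germ-free corpus it was at 46.0, 49.0 and 23.2, against 16.8, 8.5 and 6.7 in conventional corpus. Every germ-free array lay above every conventional one in these regions, although germ-free descending colon 3 was itself under the floor. In germ-free rectum it was at 4.4, 37.9 and 11.4, against 15.2, 5.0 and 8.8 in conventional rectum, and the groups overlapped. The germ-free signal was thus at least 4.84-fold higher in the jejunum, at least 2.53-fold in the descending colon and at least 1.76-fold in the corpus. The log2 differences were 0.82, 2.27, 1.34 and 0.28 from corpus to rectum, and the corpus value was 1.16 without the 3 libraries. These sizes depend on the floor: with a floor at the 40th percentile the log2 differences were 0, 0.99, 0.49 and 0 from corpus to rectum. The rectum was the region that also stood apart for Urod 161328_i_at.

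Bach1 94415_at was above the floor on every array and did not share that pattern. In germ-free jejunum it was at 300.7, 613.6 and 766.6, against 658.1, 985.3 and 162.6 in conventional jejunum. In germ-free descending colon it was at 278.4, 389.0 and 156.3, against 147.4, 191.8 and 109.1 in conventional descending colon. The groups overlapped in all 4 regions. Its log2 difference between germ-free and conventional mice was 0.40 in the corpus, 0.14 in the jejunum, 0.82 in the descending colon and -0.30 in the rectum. Without the 3 libraries the jejunal and rectal values were -0.63 and 0.30, so both changed sign. Over the 24 arrays the Pearson r between the Bach1 probe sets was 0.44, and 0.50 without the 3 libraries.

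**Figure D2:**
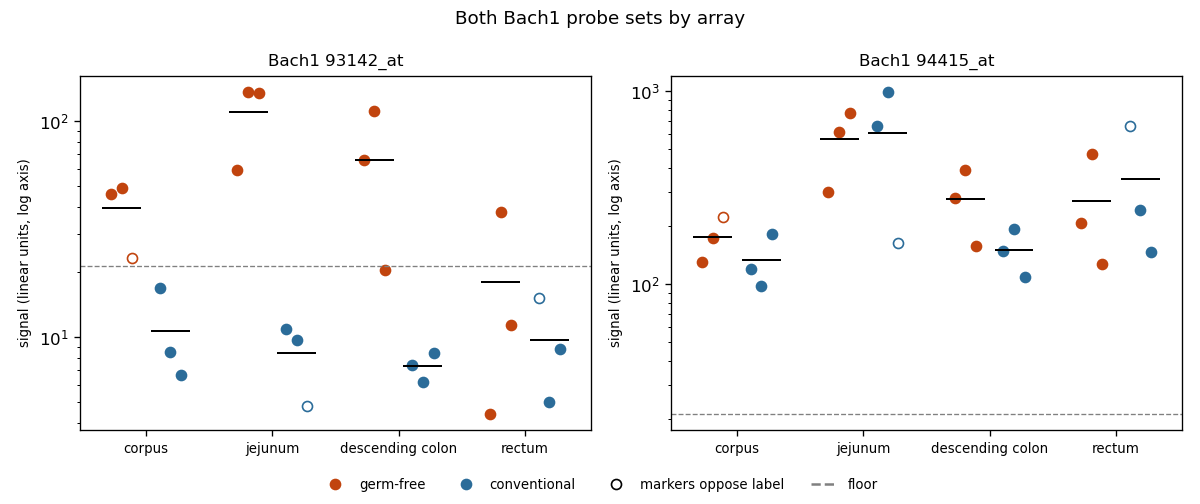
Signal of each Bach1 probe set on a log axis, by region, with germ-free arrays left of conventional arrays, a point for each array, a bar for the mean of 3 arrays and a dashed line at the floor of 21.2. Open points are the 3 libraries whose region markers oppose their labels. All 12 conventional points of 93142_at lie under the floor, and the 94415_at points overlap between the states in every region.

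The region of the tissue was not used to choose Bach1, and it was tested with limma over the 9033 probe sets that passed the filter, with both microbial states averaged and adjusted p-values by the Benjamini-Hochberg method. In the jejunum 94415_at rose above the corpus, to 581.2 ± 302.8 against 153.8 ± 46.1 (SD, n = 6 each). The log2 difference was 1.74 ± 0.43 (SE; limma adjusted p = 0.00385), a 3.35-fold change, and 2.22 ± 0.35 without the 3 libraries (adjusted p = 3.88e-05). In the descending colon it was lower than in the jejunum, at 212.0 ± 103.9 against 581.2 ± 302.8, by -1.36 ± 0.43 (adjusted p = 0.0405). Without the 3 libraries this difference was -1.74 ± 0.33 (adjusted p = 0.000569). Conventional jejunum 3, with hindgut markers, had 162.6, the lowest jejunal value, and conventional rectum 1, with jejunal markers, had 655.6, the highest rectal value. The call between colon and jejunum ended when any of 8 libraries was left out: conventional descending colon 1 or 3 (adjusted p = 0.0648 and 0.0949), conventional jejunum 1 or 2 (0.108 and 0.124), germ-free descending colon 1 or 3 (0.0567 and 0.101) and germ-free jejunum 2 or 3 (0.0831 and 0.0756). With conventional arrays alone the difference between jejunum and corpus was 1.88 (adjusted p = 0.0645).

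Bach1 93142_at entered the regional fit only through germ-free arrays, so its regional results carry no weight. Its lowest adjusted p was 0.0919, for jejunum minus corpus (log2 difference 0.73 ± 0.32 SE), and it passed there with array medians equalised (adjusted p = 0.049), without germ-free jejunum 1 (0.0389) and with a floor raised to the 40th percentile (0.0326). The probe sets most like 93142_at over the 24 arrays were those of Smarcc1, a chromatin remodelling subunit (Pearson r = 0.87), the activin-binding protein Fst (0.83) and the small RNA effector Ago2 (0.80). Smarcc1 was at 279.7 to 422.5 in germ-free jejunum and 119.0 to 157.2 in conventional jejunum. Those most like 94415_at were the calcium-binding protein gene Pdcd6 (0.86), the aminopeptidase gene Lap3 (0.85) and the calcium-binding protein gene Ocm (0.85). Ocm was at 296.1 to 762.8 in germ-free jejunum and 25 to 911.6 in conventional jejunum. These neighbours of the Bach1 probe sets were named by a rule that ranks likeness alone.

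Hmox1, the inducible heme oxygenase, had the lowest adjusted p of the members between regions. In the corpus it was at 1386, 840.2 and 334 in germ-free mice, against 1372, 1297 and 1519 in conventional mice. In the other regions the 18 arrays lay between 205.9 and 424.9. The 334 came from germ-free corpus 3, the library with hindgut markers, and without it every corpus array was at least at 840.2. In the jejunum Hmox1 fell to 289.8 ± 42.7, against 1125 ± 451.8 in the corpus (SD, n = 6 each). The log2 difference was -1.81 ± 0.23 (SE; limma adjusted p = 1.19e-05), 3.52-fold lower, and -2.08 ± 0.17 without the 3 libraries. In the descending colon it fell to 294.4 ± 40.1 against the same corpus level, by -1.79 ± 0.23 (adjusted p = 3.37e-05), and by -2.07 ± 0.16 without the 3 libraries. Within each state the jejunal difference was -1.47 in germ-free mice (adjusted p = 0.0341) and -2.16 in conventional mice (adjusted p = 4.79e-07). For colon minus corpus it was -1.31 in germ-free mice (adjusted p = 0.314) and -2.26 in conventional mice (adjusted p = 3.31e-07), so that call ended in the germ-free arrays alone, whose corpus group held the library with hindgut markers. Descending colon and jejunum differed by 0.03 ± 0.23, and rectum and descending colon by -0.03 ± 0.23.

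Alad, which joins aminolevulinic acid molecules into porphobilinogen, was also lower in the jejunum and the descending colon than in the corpus. In the corpus it was at 2020, 1889 and 586.9 in germ-free mice, against 2100, 1911 and 1851 in conventional mice. The 586.9 again came from germ-free corpus 3. In the descending colon it fell to 758.4 ± 230.6, against 1726 ± 565.8 in the corpus (SD, n = 6 each). The log2 difference was -1.13 ± 0.24 (SE; limma adjusted p = 0.00246), 2.19-fold lower, and -1.42 ± 0.17 without the 3 libraries. In the germ-free arrays alone it was -1.19 (adjusted p = 0.32), with that library included. In the jejunum Alad fell to 1051 ± 307.3 against the same corpus level, by -0.66 ± 0.24 (adjusted p = 0.0443), and by -0.87 ± 0.18 without the 3 libraries (adjusted p = 0.00052). This call ended under 14 of 26 alternatives. In the germ-free arrays alone the difference was -0.36 (adjusted p = 0.62), with germ-free corpus 3 included. In the conventional arrays alone it was -0.95 and passed (adjusted p = 0.00789). The adjusted p was 0.0747 with no filter, 0.0527 with a variance that did not follow intensity and 0.129 with only the groups compared. With array medians equalised, which moved the median of all probe sets in this comparison by 0.18, the difference was -0.47 (adjusted p = 0.237). It also ended without conventional corpus 1, 2 or 3 (adjusted p = 0.0814, 0.0686 and 0.0645), conventional jejunum 2 or 3 (0.0876 and 0.0899), germ-free corpus 1 or 2 (0.135 and 0.129) or germ-free jejunum 1 or 3 (0.065 and 0.12). Colon minus jejunum was -0.47 ± 0.24 (adjusted p = 0.21), and -0.54 ± 0.17 without the 3 libraries (adjusted p = 0.0216).

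**Figure D3:**
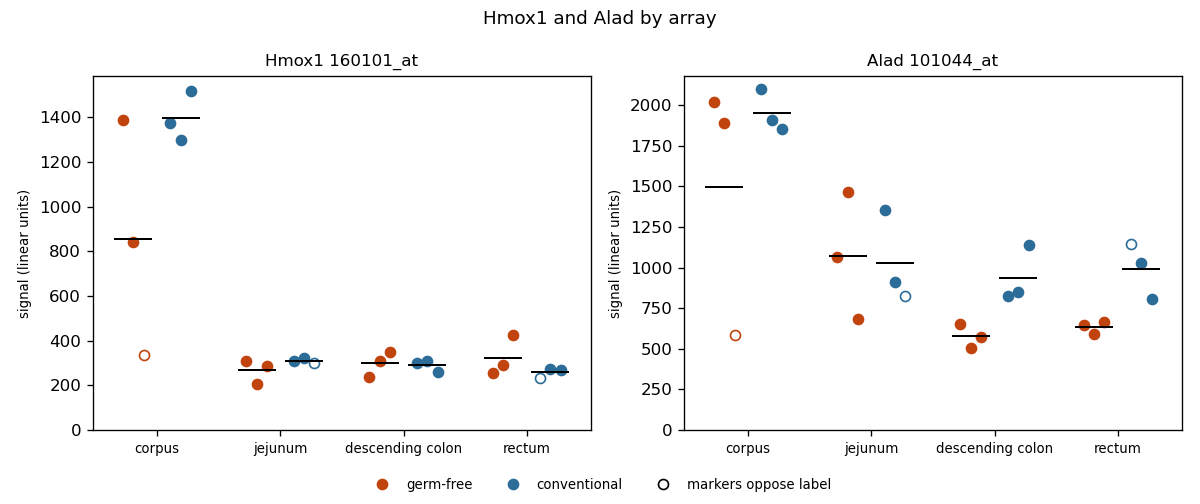
Signal of Hmox1 and Alad on linear axes from 0, by region, with germ-free arrays left of conventional arrays, a point for each array and a bar for the mean of 3 arrays. Open points are the 3 libraries whose region markers oppose their labels. The corpus arrays stand above the other regions for both genes except the open germ-free point, at 334 for Hmox1 and 586.9 for Alad.

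Markers of other cells in the tissue are given beside these regional levels. Of 13 macrophage genes 11 were on the array, on 16 probe sets, and their summed signal ran from 2003 to 4130 in the corpus, 4316 to 7094 in the jejunum, 2816 to 6136 in the descending colon and 4106 to 6271 in the rectum. The corpus, where Hmox1 was high, did not overlap the jejunum in this sum but overlapped the descending colon. The sum adds linear signals across probe sets, so the brightest weigh most. A Lyz2 probe set reached 4402.7 and Cd14 2589.2, against at most 210.3 for Cd68 and 92.2 for Mrc1. The sum therefore cannot show whether the corpus held fewer macrophages. Marco and the other Lyz2 probe set were under the floor on all arrays, and Adgre1 on 20 and 23 of 24 with its probe sets. Of 14 red cell genes 8 were on the array, on 9 probe sets, and their summed signal ran from 1762 to 2835 in the corpus, 982.8 to 2605 in the jejunum, 1012 to 4886 in the descending colon and 804.5 to 1572 in the rectum. The erythroid synthase gene Alas2 was at the floor on 14 arrays and reached at most 56.2. In jejunum minus corpus, where 32.9% of all 9033 probe sets were called, the macrophage list had 2 tested probe sets higher (Lyz2 and Cd14) and 2 lower (Cd68 and Mrc1) of 10, and the red cell list had Hbb-bh1 higher and Hbb-b2 lower of 6. Their part in the regional levels was not tested.

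The remaining enzymes were not called in any regional comparison. Alas1, the rate-limiting synthase of the pathway, was at 997.5 ± 222.4 in the jejunum and 813.6 ± 92.1 in the corpus (SD, n = 6 each; log2 difference 0.27 ± 0.13 SE; limma adjusted p = 0.13). Without germ-free jejunum 3, a library with Atp4a at 874, this difference was 0.37 and passed (adjusted p = 0.025). Uros, which closes the ring, ranged from 104.9 to 224.4 over all arrays, and its 4 regional means lay between 162.7 and 182.5. Cpox and Ppox are the mitochondrial oxidases that follow Urod. Cpox 98505_i_at was at 134.3 ± 22.4 in the jejunum and 181.4 ± 27.5 in the corpus (adjusted p = 0.0946), and Cpox 98506_r_at at 62.1 ± 17.3 in the jejunum and 89.2 ± 31.9 in the corpus (adjusted p = 0.196). These Cpox sets come from 1 gene record and had a Pearson r of 0.14 over the 24 arrays. Ppox 100429_at was at 68.1 ± 14.8 in the rectum and 84.9 ± 17.7 in the descending colon, with an unadjusted p of 0.0664 and an adjusted p of 1. The Fech set, for the iron-inserting enzyme, was at the floor on 13 arrays, with 38.6 to 42.5 in germ-free corpus and 21.2 to 31.7 in conventional corpus.

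Counted over the 9 tested probe sets of 7 genes, without Urod and with Bach1 93142_at among those not called, 3 were called in jejunum minus corpus, 1 higher and 2 lower, where 32.9% of all 9033 probe sets were called. In descending colon minus corpus 2 were called, both lower, with 18.3% called over all. In descending colon minus jejunum 1 was called, lower, with 14.4% over all. In rectum minus descending colon limma called 0, with 0 members at an unadjusted p under 0.05, 0% called over all and 202 of all probe sets at an unadjusted p under 0.05. The members' counts, 3, 2 and 1 of 9, are thus near the shares of all probe sets. Without the 3 libraries the counts were 3, 2, 2 and 0, the added call being that of Alad between colon and jejunum.

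**Figure D4:**
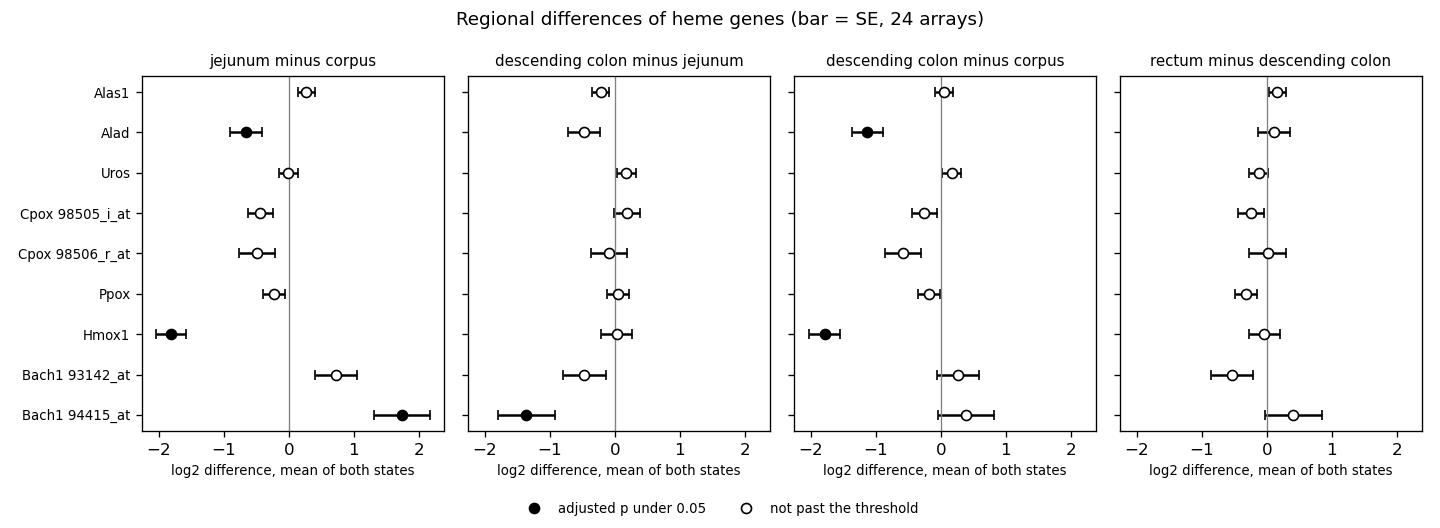
Regional log2 differences of the 9 tested probe sets with both microbial states averaged, points with SE bars from the fit to 24 arrays, filled where the adjusted p was under 0.05. Hmox1 and Alad lie left of 0 against the corpus, and Bach1 94415_at lies right of 0 for jejunum minus corpus and left for descending colon minus jejunum.

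Between germ-free and conventional mice, none of the tested heme genes passed in any region. Of 7 probe sets of 6 genes, without Urod and Bach1, limma called 0 in each of the 4 regions. The members at an unadjusted p under 0.05 were 2 in the corpus and 0 in the jejunum, descending colon and rectum. Of all 9033 probe sets, 817, 1185, 733 and 315 had an unadjusted p under 0.05 from corpus to rectum. Over all 9033 probe sets 0% were called in the corpus, 0.465% in the jejunum, 0.0111% in the descending colon and 0.0111% in the rectum. In the mean of the 4 regions 0 members were called and 2 had an unadjusted p under 0.05. Over all probe sets 1.68% were called there, and 1632 had an unadjusted p under 0.05. The test of whether the effect of status differed between regions called 0 members, and none had an unadjusted p under 0.05. Over all probe sets 0.0221% were called by it, and 488 had an unadjusted p under 0.05. With so few calls among all probe sets, a count of 0 among 7 is near the background.

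Alad was the synthesis gene with the lowest adjusted p in the mean of the regions. In germ-free descending colon it was at 652.8, 506.7 and 575.4, against 824.6, 851.8 and 1139 in conventional descending colon. In germ-free rectum it was at 649.4, 592.1 and 668.4, against 1145, 1026 and 806.8 in conventional rectum. The groups did not overlap in either region, but how many of all probe sets separate in this way was not counted. The log2 differences were -0.69 ± 0.34 in the descending colon and -0.63 ± 0.34 in the rectum (SE, n = 3 arrays each; limma adjusted p = 0.634 and 0.982). In the jejunum the difference was 0.02 ± 0.34, and in the corpus -0.58 ± 0.34 with all libraries and 0.00 without the 3. The mean over the regions was -0.47 ± 0.17 (adjusted p = 0.162), and -0.33 without the 3 libraries (adjusted p = 0.192). Alad thus did not pass the test.

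Hmox1 in the corpus had a log2 difference of -0.93 ± 0.33 (SE, n = 3 arrays each; limma adjusted p = 0.415), and -0.37 without the 3 libraries (adjusted p = 0.869). It passed only when germ-free corpus 1 was left out (-1.39, adjusted p = 0.0239), which leaves the library with hindgut markers and germ-free corpus 2 on the germ-free side. Germ-free corpus 2 had Car1 at 1433 and Hmox1 at 840.2. The -0.37 also rests on this mixed library, beside germ-free corpus 1 with Hmox1 at 1386. In the jejunum Hmox1 was at 268.5 ± 55.2 in germ-free and 311.2 ± 11.5 in conventional mice, and in the rectum at 322.5 ± 90.5 in germ-free and 259.3 ± 22.7 in conventional mice. The macrophage sum was 4316 to 5560 in germ-free and 4994 to 7094 in conventional jejunum, and 4106 to 4337 in germ-free and 4745 to 6271 in conventional rectum. Of that list only the complement gene C1qc was called, lower in germ-free mice in the mean of the regions (adjusted p = 0.0286, and 0.0551 without the 3 libraries), and its part in the members' values was not tested. Uros in the corpus was at 163.3, 224.4 and 212.7 in germ-free mice, against 136, 104.9 and 161.5 in conventional mice (log2 difference 0.59 ± 0.20, adjusted p = 0.415). Alas1 had log2 differences of -0.14, -0.23, -0.17 and -0.14 from corpus to rectum, and the mean was -0.17 ± 0.09 (adjusted p = 0.354). The Cpox probe sets pointed opposite ways in the descending colon, at -0.53 ± 0.28 for 98505_i_at and 0.40 ± 0.40 for 98506_r_at (adjusted p = 0.645 and 0.814).

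**Figure D5:**
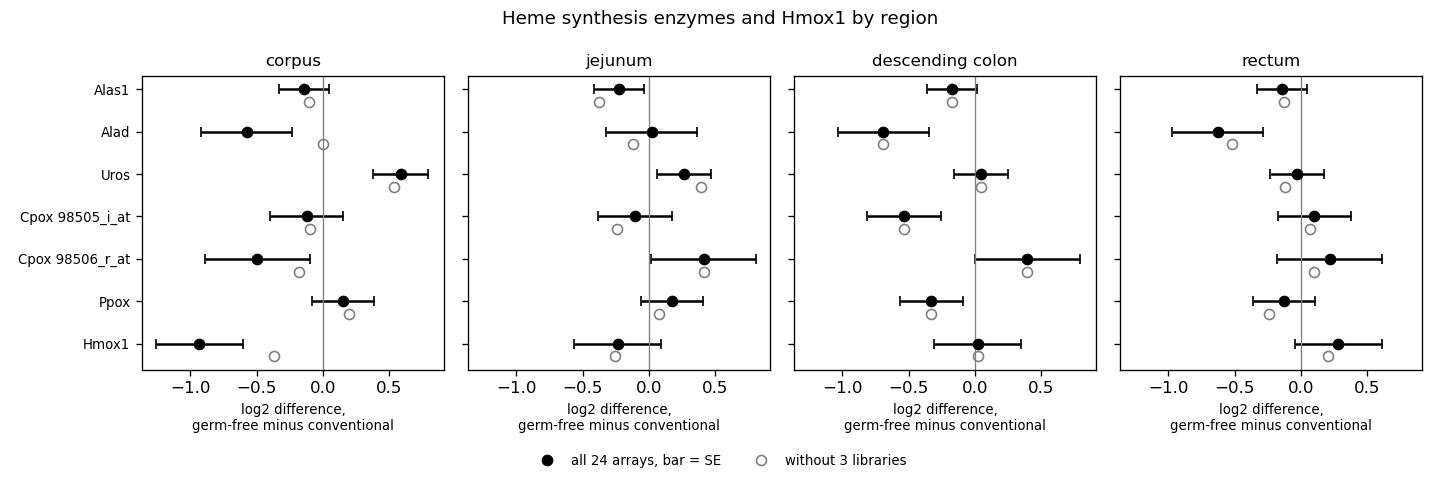
Germ-free minus conventional log2 differences of 7 tested probe sets in each region, filled points with SE bars from the fit to 24 arrays and open points without the 3 libraries whose markers oppose their labels. In the corpus the Hmox1 point moves to -0.37 and the Alad point to 0.00 without them, and no point passed an adjusted p under 0.05.

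Genes around the pathway were read from lists. The heme list (28 genes, of which 18 were on the array and 16 were tested on 18 probe sets) held enzymes, carriers and transporters beyond the members. It had 0 called in each of the 5 comparisons of status. Its median log2 difference was -0.03 in the jejunum, against -0.02 for all probe sets, and 0.07 in the rectum, against 0.06. In the corpus it was 0.19, against 0.04, and in the descending colon 0.32, against 0.07. Without the 3 libraries the corpus and colon medians were 0.14 and 0.32. The shift of these medians was not tested. In jejunum minus corpus 3 of 18 probe sets were higher and 2 lower, beside 32.9% called over all, so the count is near the background. The porphyrin exporter Abcg2 rose 8.16-fold, to 850.9 against 149.6 (adjusted p = 1.05e-05). The biliverdin reductase Blvra, which acts after heme oxygenase, rose 2.05-fold, and Hccs, which attaches heme to cytochrome c, 1.71-fold. The heme transporter Slc48a1 fell 2.06-fold, to 118 against 251.9, and the progesterone receptor membrane component Pgrmc2, a heme chaperone, 1.74-fold. The list's median there was -0.10, against -0.10 for all probe sets.

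Partners and relatives of Bach1 (8 genes, of which 7 were on the array and 5 were tested on 7 probe sets) also had 0 called in each comparison of status. Nfe2l2, the activator Nrf2 that competes with Bach1, was at 1324 in germ-free jejunum and 722.5 in conventional jejunum (log2 difference 0.85; adjusted p = 0.131). Of the list's 7 probe sets 1 was higher and 2 lower in jejunum minus corpus, beside 32.9% called over all, so the count is near the background. In the jejunum Nfe2l2 fell 1.78-fold relative to the corpus, to 1023 against 1783 (adjusted p = 0.00111), and Nfe2l1 fell 1.5-fold, while the small Maf gene Mafk rose 1.38-fold. In the descending colon Nfe2l2 fell 2.16-fold relative to the corpus (adjusted p = 0.000157), the only 1 of 7 probe sets called there, beside 18.3% called over all.

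Known targets of Bach1 and Nrf2 (19 genes, of which 14 were on the array and 13 were tested on 16 probe sets) had 0 called in each comparison of status, and 1 higher and 1 lower in the jejunum without the 3 libraries. In that reduced fit 0.508% of all 8856 probe sets were called in the jejunum, and the list's calls were not tested against this share. The targets' median log2 difference in the jejunum was 0.14, against -0.02 for all probe sets, and 0.02 without the 3 libraries. The member of lowest p was glutathione reductase, Gsr, at 516.3 in germ-free and 993.2 in conventional jejunum (adjusted p = 0.112). The modifier subunit of glutathione synthesis, Gclm, was at 526.6 in germ-free and 347.5 in conventional jejunum (adjusted p = 0.199). In jejunum minus corpus 5 of 16 probe sets were higher and 4 lower, beside 32.9% called over all. Sulfiredoxin, Srxn1, rose 3.84-fold, to 627.5 against 149.8 (adjusted p = 0.000399), and the transketolase Tkt 2.17-fold. Taldo1, Gsr and Txnrd1, for enzymes of the pentose phosphate, glutathione and thioredoxin systems, rose 1.67-fold, 1.66-fold and 1.36-fold. The glutathione transferase Gsta4 fell 20.9-fold, to 77.7 against 1878 (adjusted p = 1.54e-05), the malic enzyme Me1 6.13-fold, and the quinone reductase Nqo1 5.57-fold and 5.10-fold with its probe sets.

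Proteins that carry or handle heme (18 genes, of which 14 were on the array and 12 were tested on 16 probe sets) had 0 called in each comparison of status, with a median of 0.32 in the jejunum, 0.23 without the 3 libraries, against -0.02 for all probe sets. In jejunum minus corpus 5 of 16 probe sets were higher and 1 lower, beside 32.9% called over all, so the count is near the background. The outer mitochondrial cytochrome Cyb5b rose 2.42-fold and 2.15-fold with its probe sets, and catalase, Cat, rose 1.95-fold, to 426.3 against 203.7 (adjusted p = 0.0185). The respiratory subunit gene Sdhd rose 1.67-fold and the tryptophan dioxygenase gene Ido1 at least 2.41-fold. Sqor, a sulfide oxidase that carries a flavin and not heme, was also in the list and fell 2.52-fold. In descending colon minus jejunum 1 of 16 probe sets was higher and 5 lower, beside 14.4% called over all. That count is above the share over all, but the 16 probe sets stand for 12 genes and the excess was not tested. There Cat fell 2.16-fold, and Sqor rose 5.42-fold, to 1380 against 360.1 (adjusted p = 0.00408).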

How the data were processed

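The authors deposited 1 linear signal intensity per probe set and array, already scaled, as the 24 arrays share a trimmed mean (middle 96%) of 200.1 to 200.14. The signal algorithm and detection calls are not given in the sources used here. Array medians ran from 68.6 to 103.5. Names came from the platform annotation, in which 10855 list 1 gene, 396 several and 1237 none. No probe set was averaged with another.

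Intensities were floored at 21.2 and log2 was taken. The 66 control probe sets were left out, and 9033 probe sets passed the filter. The model, in limma 3.58.1 (R 4.3.3, statmod 1.5.0), had 8 group means and let the variance follow intensity. P-values were two-sided and adjusted by Benjamini-Hochberg over the 9033, with calls at an adjusted p under 0.05. The number of arrays limits the precision. The labels do not say that arrays came from separate mice, so the spread behind each p-value is that between arrays and may be technical.

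Members and lists were chosen with earlier results of these data known, and the sets without certain libraries after their markers were seen. Named genes were all members, list genes of lowest p or past the threshold, and the 3 probe sets most like each Urod and Bach1 probe set. Alternatives covered scaling, floor, filter, variance model, arrays in the fit, pairing by number and leaving out each array. The fit was tested on simulated data.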

Additional observations from a re-analysis of the deposited data

Results flagged for a closer look

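The effect of microbial status on Urod 161328_i_at had opposite directions in different regions. Every germ-free array lay above every conventional array in the rectum (71.2 to 106 against 13.7 to 19.6), and every germ-free array lay below every conventional array in the jejunum (11.9 to 27.2 against 74.4 to 145.8). The log2 effects of the rectum and the jejunum differed by 4.12. This difference was not tested, because these values served to choose the gene. Urod 94275_at, measured on the same arrays, had effects of -0.29 in the rectum and 0.35 in the jejunum.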

How the results depend on the processing

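Of the counts of called members, that of descending colon minus jejunum, 1, became 0 with no filter, 0 in conventional arrays only, 0 in germ-free arrays only, 2 without the 3 libraries, 2 without 4 (also germ-free descending colon 1) and 3 without 5 (also germ-free jejunum 3), sets chosen after seeing the data. That of descending colon minus corpus, 2, became 0 in germ-free arrays only. That of jejunum minus corpus, 3, ran from 2 to 4, and its members changed. With medians equalised Alad was lost and Bach1 93142_at gained, although the regional results of that probe set carry no weight. Alas1 was gained without 5 libraries. With each array left out in turn, these counts ran from 0 to 1 and from 2 to 2, jejunum minus corpus from 2 to 3, germ-free minus conventional corpus from 0 to 1, and the other comparisons from 0 to 0. No called difference reversed. The cause of these changes was not tested.

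Over all probe sets, calls ran from 0 (germ-free arrays only) to 2900 (without 5 libraries) against 1649 for descending colon minus corpus, 0 (conventional arrays only) to 2690 against 1304 for descending colon minus jejunum, and 1327 to 3682 against 2970 for jejunum minus corpus. For germ-free minus conventional they ran from 0 to 146 against 0 in the corpus, 10 to 299 against 42 in the jejunum, 0 to 50 against 1 in the descending colon, 0 to 1 against 1 in the rectum, and 37 to 239 against 152 in the mean, and the test between regions from 0 to 27 against 2. With array medians equalised, 1720 were higher and 1130 lower in jejunum minus corpus (1236 and 1734 as deposited), 386 and 675 in descending colon minus jejunum (822 and 482), 45 and 95 in the mean (74 and 78) and 19 and 9 in germ-free jejunum (20 and 22). With quantile normalization they were 643 and 546 in descending colon minus jejunum and 14 and 9 in germ-free jejunum.

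Same-numbered arrays of a state had a median correlation of deviations of 0.198 in germ-free and 0.0531 in conventional mice, with 12 and 4 of 18 pairs over 0.1. Arrays of different number had -0.112 in germ-free and -0.03 in conventional mice, with 5 and 3 of 36 over 0.1. Shared numbers thus went with higher correlations in germ-free mice, but not in every pair, and the labels do not say what a number marks, so no pairing was taken for the results. A replicate block by state and number left the called members at 3, 1 and 2 in the regional comparisons and 0 elsewhere, and the mean's calls over all probe sets at 37 against 152. The floor sets the size of the Urod 161328_i_at differences: with a floor at the 40th percentile they were -0.16, -0.89, -0.69 and 0.79 from corpus to rectum.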
